A study of Mus musculus with 13 samples.

Results

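The collagen chains other than type IV were examined in back skin of newborn mice at P4. Members were all genes of the count files whose symbol reads Col, a number, the letter a and a number, without the 6 chains of type IV, which left 38 of 49315 genes. Total RNA of full-thickness back skin was sequenced from 3 WT mice and from 3 mice labelled DKO, whose genotype is *K14Cre+Kctd1 fl/flKctd15 fl/fl*. The *K14* promoter drives Cre in keratinocytes, so that by design dermal fibroblasts are not targeted. The state of both genes in each cell type was not measured here. WT mice were littermates, and whether they carried floxed alleles or Cre is not given in the sources used here. Each library is named by its group and a replicate number that carries no order and pairs no mice.

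Collagens are built from chains that wind around one another in a triple helix, which requires glycine at a regular spacing along the chain (Gly-X-Y repeats). Fibrillar chains assemble into the fibrils that give the dermis its tensile strength, and FACIT chains (fibril-associated collagens with interrupted helices) decorate the surface of those fibrils. Beaded filaments of type VI surround cells, transmembrane chains sit in the plasma membrane, and the remaining chains include the anchoring fibrils under the epidermis and the network of type VIII. In skin most of these chains are made by dermal fibroblasts, whereas keratinocytes make *Col17a1* and much of *Col7a1*.

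The targeted genes were read first. *Kctd1* had normalized counts of 443, 410 and 442 in WT replicates 1 to 3 and of 506, 985 and 735 in the libraries labelled DKO. *Kctd15* had 736, 737 and 763 in WT libraries and 1131, 1509 and 1325 in those labelled DKO. A normalized count is the count after scaling by edgeR's TMM method to the mean library size. For both genes the lowest value of a library labelled DKO exceeded the highest WT value, with log2 fold changes of 0.78 for *Kctd1* and 0.83 for *Kctd15*. By the quasi-likelihood test of edgeR with Benjamini-Hochberg adjustment, *Kctd1* had an adjusted p = 0.342 and *Kctd15* an adjusted p = 0.107. In DESeq2 the adjusted p-values were 0.0783 for *Kctd1* and 0.000632 for *Kctd15*. Counts are given per gene, not per exon, so they do not show whether the floxed exons were lost, and every direction below rests on the labels. The study's methods describe removal of the floxed exons in mice of this genotype, which the files used here cannot check.

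Libraries held 14836798, 17643043 and 17470709 counts on genes in WT skin and 11263863, 14950538 and 15050299 in skin labelled DKO. A count of 3, taken as the floor, corresponds to between 0.170 and 0.266 CPM (counts scaled by the library total) across the 6 libraries, a limit that covers counting error only. DKO replicate 2 stood apart from the other libraries by base composition. Across 20107 genes, the Spearman correlation between the GC content of a gene's longest transcript and the library's deviation from the mean of all libraries was 0.674 in DKO replicate 2. In the other 5 libraries the same correlation lay between -0.321 and -0.0301. These correlations are across genes, which are not independent replicates. Collagen chains were rich in GC, with a median of 55.4% over the 38 members against 48.9% over the genes compared, and 33 of the 38 members lay above the latter median. Among the 2011 genes with the highest GC content, the median log2 difference from the WT mean was 0.51 in DKO replicate 2 and between -0.10 and 0.04 in the other 5 libraries. The collagen chains are therefore given with and without DKO replicate 2, whereas the related genes and markers of cell types are given for all 6 libraries only.

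**Figure D1:**
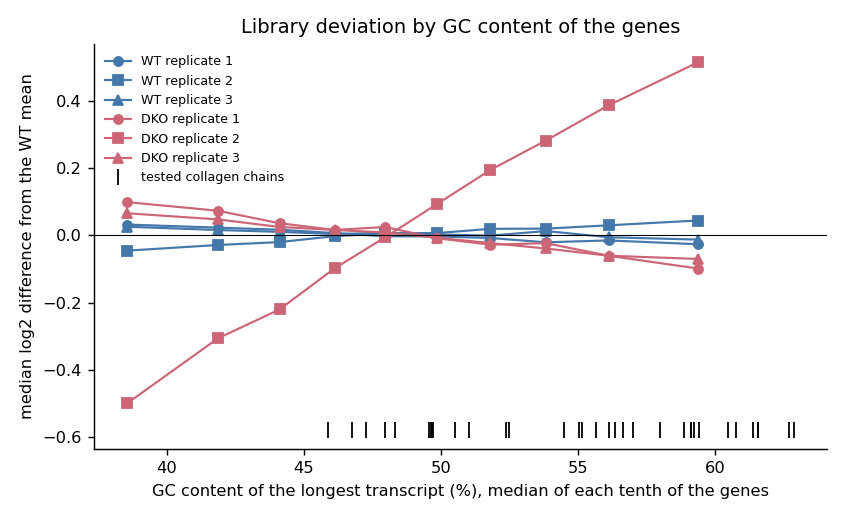
Median log2 difference from the WT mean (y axis) against median GC content in percent (x axis) for genes split into 10 equal groups by GC content, with 1 line per library and a tick for each tested collagen chain. DKO replicate 2 rises from -0.50 to 0.51 from the lowest to the highest of the 10 groups, while the other 5 libraries stay within 0.10 of 0.

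Of the 38 members, 34 had enough counts for a test, and 28 of these 34 had a log2 fold change above 0 (DKO over WT), a direction found in 52.9% of all 20168 genes tested. The median log2 fold change was 0.18 over the 34 members and 0.02 over all genes tested. No member was called, where a call required an absolute log2 fold change over 1 and an adjusted p-value under 0.05 by edgeR (quasi-likelihood test, Benjamini-Hochberg adjustment), against 0.0694% of all genes. The number of members at an adjusted p-value under 0.05 was 0 in edgeR and 0 in DESeq2, where 1.07% of genes passed. At an unadjusted p-value under 0.05 in edgeR, 6 members were higher in skin labelled DKO, against 4.96% of all genes, and 1 member was lower, against 2.54%. DESeq2 gave 7 of 38 members at that level, against 4.44% of the genes it tested. Groups did not overlap for 4 members that were higher in skin labelled DKO, against 7.24% of all genes, and for 1 that was lower, against 5.96%.

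The libraries did not contribute alike. DKO replicate 1 held the highest normalized count of 14 members and DKO replicate 2 of 11, whereas WT replicate 1 held the lowest of 17. Relative to the WT mean, the median member had a log2 level of -0.08, -0.01 and 0.12 in WT replicates 1 to 3, and of 0.17, 0.28 and 0.03 in DKO replicates 1 to 3. DKO replicate 3 thus lay below WT replicate 3, and the groups overlapped. These libraries carry different numbers in their titles. WT replicate 3 shares its number with DKO replicate 1, and WT replicates 1 and 2 share theirs with DKO replicates 2 and 3. Among libraries that share a number, each DKO median lay above each WT median, although DKO replicate 3 at 0.03 was close to WT replicate 2 at -0.01. What the number marks is not given. Without DKO replicate 2, the median log2 fold change of the 34 members was 0.11, with 23 of 34 above 0 and 7 at an unadjusted p-value under 0.05, against 12.4% of all genes in that fit. An adjustment of each library for the GC content of its genes, chosen after seeing the data, gave a median of 0.08, with 25 of 34 above 0 and 6 at that level, against 9.72% of all genes. Scaling by total counts left 25 of 34 above 0, with a median of 0.14 against -0.02 over all genes tested. Without DKO replicate 1 3 of 34 members were at an unadjusted p-value under 0.05, against 7.39% of all genes, and without DKO replicate 3 there were 12, against 9.33%.

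**Figure D2:**
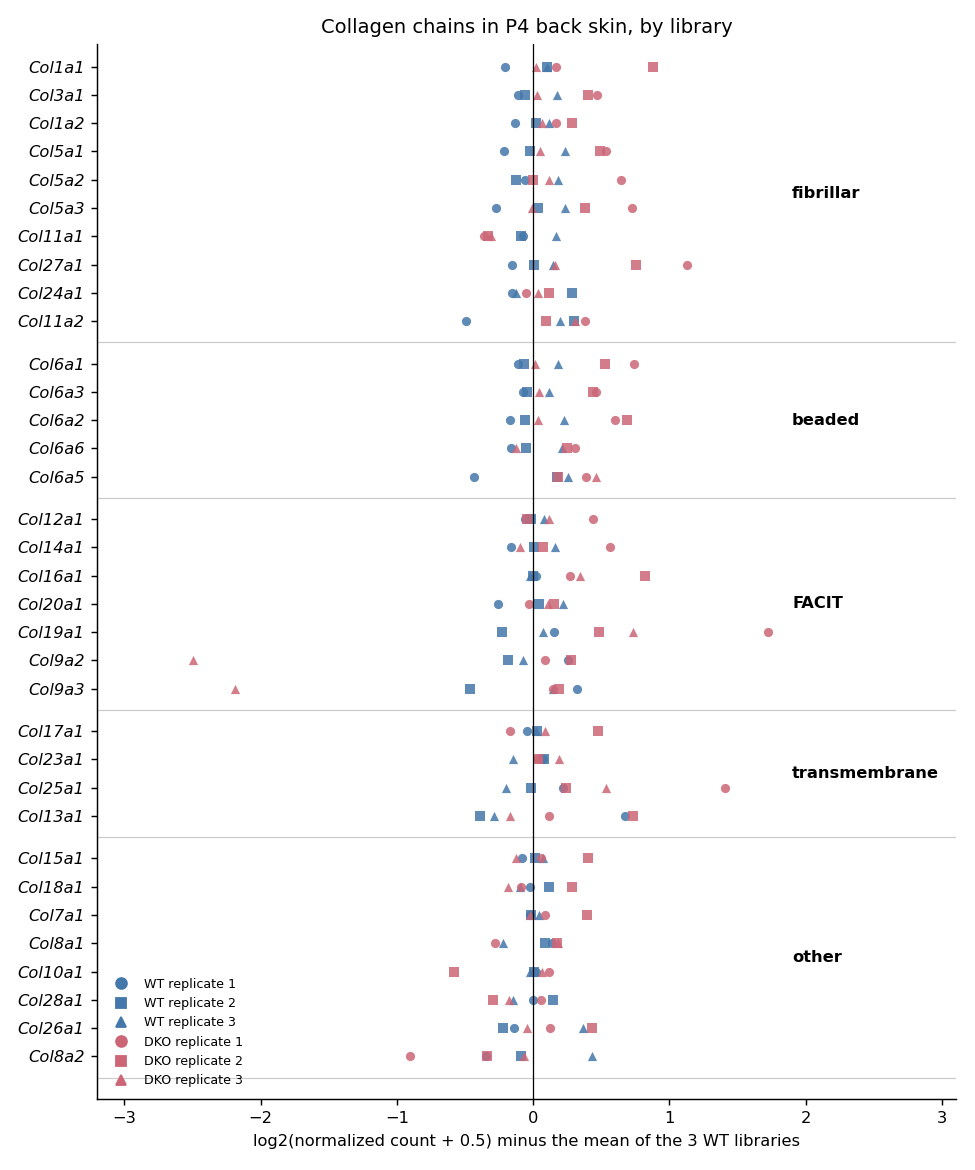
Log2 of the normalized count plus 0.5, minus the mean of the 3 WT libraries (x axis), for the 34 tested collagen chains (rows, grouped by family), with 1 point per library. *Col11a1* has all 3 libraries labelled DKO below WT, *Col16a1*, *Col19a1*, *Col25a1* and *Col27a1* have them above, and the groups overlap for the other chains.

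Fibrillar chains carried most of the collagen message. Their summed length-scaled level (counts per kilobase of annotated gene length, scaled to the same total in each library and written here as TPM) was 79.1%, 80.8% and 80.3% of that of all members in WT libraries and 78.5%, 82.7% and 80.1% in libraries labelled DKO. Of the 11 fibrillar members 10 were tested, and 9 had a log2 fold change above 0, with a median of 0.29. The median was 0.16, 0.28 and 0.39 without DKO replicates 1, 2 and 3 in turn. By mean TPM over the 6 libraries, *Col1a1* at 4050, *Col3a1* at 1576 and *Col1a2* at 837 were the most abundant members of all.

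*Col1a1* (ENSMUSG00000001506, GRCm38 chr11:94936224-94953042), which encodes the major chain of type I collagen, had normalized counts of 99786, 123720 and 123770 in WT libraries. In libraries labelled DKO it had 129092, 211906 and 116600. DKO replicate 2 was far above all others, and DKO replicate 3 lay inside the WT range. For *Col1a1* the log2 fold change was 0.40 (SE 0.24, adjusted p = 0.819 by the quasi-likelihood test of edgeR with Benjamini-Hochberg adjustment), and it was 0.09 without DKO replicate 2. *Col1a2*, the partner chain of type I, had 44325, 49245 and 52783 in WT libraries and 54593, 59161 and 50948 in libraries labelled DKO, with a log2 fold change of 0.17 and a standard error of 0.15, or 0.10 without WT replicate 1, 0.12 without DKO replicate 2 and 0.09 with the GC adjustment. *Col3a1*, which forms type III fibrils in the same tissue, had 63453, 65803 and 77385 against 94907, 90756 and 69881. For both chains DKO replicates 1 and 2 lay above the WT libraries and DKO replicate 3 inside their range. The log2 fold change of *Col3a1* was 0.31 with a standard error of 0.17, and it was 0.21 without DKO replicate 1 and 0.26 without DKO replicate 2.

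Type V and type XI chains, which set the diameter of fibrils by nucleating them, did not share a direction. *Col5a1* had normalized counts of 7835, 8929 and 10657 in WT libraries and 13148, 12705 and 9368 in libraries labelled DKO, and *Col5a2* had 6583, 6295 and 7807 against 10719, 6857 and 7439. The groups overlapped for both, with log2 fold changes of 0.36 and 0.27. Without DKO replicate 1 these were 0.26 and 0.04, so that the value of *Col5a2* rested on that library, and without DKO replicate 2 they were 0.31 and 0.40. *Col11a1* (ENSMUSG00000027966, chr3:114030540-114220718) had 1648, 1631 and 1953 in WT libraries and 1350, 1383 and 1403 in libraries labelled DKO. No other member had all its values from skin labelled DKO below its WT values. Its log2 fold change was -0.34 (SE 0.12, unadjusted p = 0.0215 and adjusted p = 0.518 by the quasi-likelihood test of edgeR with Benjamini-Hochberg adjustment). It was -0.34 without DKO replicate 2 as well, and across 15 alternative settings it stayed between -0.39 and -0.25.

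*Col27a1* (ENSMUSG00000045672, chr4:63214004-63334991), a fibrillar chain best known from cartilage, had normalized counts of 286, 320 and 353 in WT libraries and of 698, 539 and 355 in libraries labelled DKO. The groups did not overlap, but DKO replicate 3 exceeded WT replicate 3 by a narrow margin. For *Col27a1* the log2 fold change was 0.73 (SE 0.23, unadjusted p = 0.0103 and adjusted p = 0.423 by the quasi-likelihood test of edgeR with Benjamini-Hochberg adjustment). It was 0.46 without DKO replicate 1 and 0.72 without DKO replicate 2. The other tested fibrillar chains, *Col5a3*, *Col24a1* and *Col11a2*, had overlapping groups and log2 fold changes of 0.38, 0.02 and 0.22. Without DKO replicate 2 these were 0.39, -0.02 and 0.30. That of *Col5a3* was 0.17 without DKO replicate 1, that of *Col11a2* was 0.01 without WT replicate 1, and that of *Col24a1* ranged from -0.07 to 0.17 with each library left out in turn. *Col2a1*, the main collagen of cartilage, had normalized counts between 1.31 and 13.2 and was not tested.

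All 5 tested beaded chains had a log2 fold change above 0, with a median of 0.32, which was 0.27, 0.34 and 0.45 without DKO replicates 1, 2 and 3 in turn. *Col6a1* (ENSMUSG00000001119, chr10:76708792-76726168) had normalized counts of 7194, 7410 and 8804 in WT libraries and 13003, 11176 and 7849 in libraries labelled DKO. *Col6a2*, its neighbor on the chromosome and a chain of the same heterotrimer, had 6999, 7543 and 9206 against 11895, 12670 and 8041. In both genes DKO replicates 1 and 2 exceeded every WT library, while DKO replicate 3 fell below WT replicate 3. The log2 fold changes were 0.45 and 0.46, each with a standard error of 0.19 (adjusted p = 0.626 and adjusted p = 0.622 by the quasi-likelihood test of edgeR with Benjamini-Hochberg adjustment). Their unadjusted p-values were 0.0390 and 0.0383 in that test. The fold changes were 0.27 and 0.37 without DKO replicate 1, and 0.42 and 0.34 without DKO replicate 2, whereas without DKO replicate 3 both were 0.63.

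*Col6a3*, the large chain that completes the trimer, had normalized counts of 12919, 13178 and 14731 in WT libraries and 18743, 18419 and 13967 in libraries labelled DKO. It showed the same order of libraries as *Col6a1*, with a log2 fold change of 0.32 and a standard error of 0.15, or 0.23 without DKO replicate 1 and 0.27 without DKO replicate 2. *Col6a5* and *Col6a6*, alternative partners of the first 2 chains, were far less abundant, at a mean of 1.53 and 14.7 TPM. Their log2 fold changes were 0.31 and 0.15 with overlapping groups, or 0.12 for *Col6a5* without WT replicate 1 and 0.05 for *Col6a6* without DKO replicate 1. Without DKO replicate 2 they were 0.39 and 0.10. *Col6a4* was not tested, with normalized counts of 5.26 to 8.56.

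Among the 9 FACIT members 7 were tested and 5 had a log2 fold change above 0, with a median of 0.18, which was 0.03, 0.27 and 0.22 without DKO replicates 1, 2 and 3 in turn. *Col12a1*, the most abundant member of the group, had normalized counts of 8859, 9115 and 9755 in WT libraries and 12504, 8955 and 10032 in libraries labelled DKO. DKO replicate 1 was clearly the highest, DKO replicate 3 lay slightly above the WT libraries and DKO replicate 2 among them, and the log2 fold change of 0.18 became 0.03 without DKO replicate 1 and 0.29 without DKO replicate 2. *Col14a1* likewise had its highest value in DKO replicate 1, with a log2 fold change of 0.20, or -0.03 without it and 0.27 without DKO replicate 2.

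*Col16a1* (ENSMUSG00000040690, chr4:130047840-130099283), a FACIT chain found near the basement membrane and on microfibrils of the dermis, had normalized counts of 1573, 1546 and 1524 in WT libraries and 1865, 2727 and 1963 in libraries labelled DKO. WT libraries lay close together and each library labelled DKO was above them. For *Col16a1* the log2 fold change was 0.50 (SE 0.16, unadjusted p = 0.0103 and adjusted p = 0.423 by the quasi-likelihood test of edgeR with Benjamini-Hochberg adjustment). Its transcript is rich in GC (61.4%), and without DKO replicate 2 the fold change was 0.31, against 0.36 with the GC adjustment.

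*Col19a1* (ENSMUSG00000026141, chr1:24261890-24587472), a minor FACIT chain associated with basement membrane zones of muscle and other tissues, had normalized counts of 24.5, 18.7 and 23.1 in WT libraries. In libraries labelled DKO it had 73.6, 30.9 and 36.8. Groups did not overlap and DKO replicate 1 was the highest. For *Col19a1* the log2 fold change was 1.08 (SE 0.38, unadjusted p = 0.0191 and adjusted p = 0.499 by the quasi-likelihood test of edgeR with Benjamini-Hochberg adjustment), and it was 0.61 without DKO replicate 1 and 1.31 without DKO replicate 2. *Col9a2* and *Col9a3*, chains of type IX collagen, had log2 fold changes of -0.34 and -0.35 that turned to 0.19 and 0.14 without DKO replicate 3, in which they had normalized counts of 1.99 and 2.99. Without DKO replicate 2 they were -0.80 and -0.72. *Col22a1*, a chain of the junction between muscle and tendon, had too few counts for a test, with 2.04, 3.40 and 2.57 in WT libraries and 11.8, 2.21 and 1.99 in libraries labelled DKO. *Col9a1* was also not tested, and *Col20a1* had a log2 fold change of 0.07, or -0.06 without WT replicate 1 and 0.03 without DKO replicate 2. *Col21a1* was on the FACIT list but was not found among the symbols of the files.

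The 4 transmembrane members were all tested and all had a log2 fold change above 0, with a median of 0.18. It was 0.27, 0.04 and 0.30 without DKO replicates 1, 2 and 3 in turn, and without DKO replicate 2 only 2 of 4 remained above 0. *Col17a1* (ENSMUSG00000025064, chr19:47646344-47692094) encodes a component of the hemidesmosomes that fix basal keratinocytes to the basement membrane, and it is made by the cells in which Cre is active. It had normalized counts of 5273, 5556 and 5522 in WT libraries and 4855, 7575 and 5782 in libraries labelled DKO. DKO replicate 1 was the lowest of all 6 libraries and DKO replicate 2 the highest. Its log2 fold change was 0.16 (SE 0.17), and it was 0.28 without DKO replicate 1 and -0.03 without DKO replicate 2.

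*Col25a1* (ENSMUSG00000058897, chr3:130131501-130599877), a transmembrane chain of developing muscle that is needed for its innervation, had normalized counts of 221, 188 and 165 in WT libraries and 505, 225 and 276 in libraries labelled DKO. Its groups were separate, but DKO replicate 2 was close to WT replicate 1. For *Col25a1* the log2 fold change was 0.81 (SE 0.28, unadjusted p = 0.0180 and adjusted p = 0.490 by the quasi-likelihood test of edgeR with Benjamini-Hochberg adjustment), and it was 0.38 without DKO replicate 1 and 1.03 without DKO replicate 2. *Col23a1* and *Col13a1* had overlapping groups, with log2 fold changes of 0.09 and 0.21, the latter at mean normalized counts of 16.7 in WT and 19.2 in DKO libraries. That of *Col23a1* was 0.0027 without WT replicate 3 and 0.12 without DKO replicate 2, and that of *Col13a1* ranged from -0.10 without DKO replicate 2 to 0.62 without WT replicate 1.

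The 8 remaining members centered near 0, with a median log2 fold change of 0.02 and 5 of 8 above 0. The median was 0.10, -0.03 and 0.03 without DKO replicates 1, 2 and 3 in turn, and without DKO replicate 2 only 3 of 8 were above 0. *Col15a1*, a chain of vascular and muscle basement membrane zones and the most abundant of these, had normalized counts of 3908, 4182 and 4345 in WT libraries and 4305, 5460 and 3792 in libraries labelled DKO. The groups overlapped, and the log2 fold change of 0.12 became -0.03 without DKO replicate 2. *Col7a1*, which forms the anchoring fibrils that tie the epidermis to the dermis, had 1272, 1278 and 1335 against 1374, 1700 and 1274. Its log2 fold change was 0.16, or 0.04 without DKO replicate 2. *Col18a1*, another basement membrane chain, had a log2 fold change of 0.02, or -0.13 without DKO replicate 2.

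*Col8a1* and *Col8a2*, the chains of type VIII collagen, had log2 fold changes of 0.03 and -0.43. The latter, the lowest of all tested members, was -0.19 without WT replicate 3, -0.25 without DKO replicate 1 and -0.45 without DKO replicate 2. That of *Col8a1* was 0.15, -0.03 and -0.04 without DKO replicates 1, 2 and 3 in turn, and -0.08 without WT replicate 3. In the 4 libraries that share the larger number in their titles the value of *Col8a2* was -0.0049. *Col8a1* had normalized counts of 582, 560 and 453 in WT libraries and 435, 597 and 598 in libraries labelled DKO, and DKO replicate 1 was the lowest of all. *Col8a2* had normalized counts of 68.3, 81.5 and 117 in WT libraries and 46.0, 68.4 and 82.6 in libraries labelled DKO, with overlapping groups. *Col10a1*, *Col28a1* and *Col26a1* had log2 fold changes of -0.10, -0.14 and 0.16. Without DKO replicate 2 these were 0.09, -0.06 and 0.02, so that *Col10a1* changed sign. The summed TPM of these 8 members was 260, 286 and 274 in WT libraries and 297, 290.5 and 263 in libraries labelled DKO. As a share of all members it was 3.82%, 3.56% and 3.26% in WT libraries and 2.86%, 2.82% and 3.25% in libraries labelled DKO (exact permutation p = 0.1, two-sided, the smallest possible value). Shares were read for 6 parts of the collagen message, with no adjustment for their number, and the p-values of the other 5 lay between 0.4 and 0.9.

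Messages of chains that join in one trimer or fibril were compared as ratios of TPM in each library. TPM divides by annotated gene length, which was 6563 bases for *Col1a1* and 12426 for *Col1a2*. It was 4380 bases for *Col6a1* and 8326 for *Col6a2*. The ratios therefore serve to compare libraries, and their size does not give the stoichiometry of the chains. An exact two-sided permutation test of 3 against 3 libraries has 0.1 as its smallest possible p-value. The ratio of *Col1a1* to *Col1a2* was 4.26, 4.76 and 4.44 in WT libraries and 4.48, 6.78 and 4.33 in libraries labelled DKO. DKO replicate 2 stood alone, and without it the DKO mean was 4.41 against a WT mean of 4.49 (exact permutation p = 0.6 for all 6 libraries). The ratio of *Col3a1* to *Col1a1* was 0.425, 0.356 and 0.418 in WT libraries and 0.492, 0.286 and 0.401 in libraries labelled DKO, where DKO replicate 2 was the lowest of all. The ratio of *Col5a1* to *Col5a2* was 1.34, 1.60 and 1.54 against 1.39, 2.09 and 1.42, and DKO replicate 2 was again the highest. In these 3 ratios DKO replicate 2 favored the chain of higher GC content, with 58.9% for *Col1a1*, 55.7% for *Col1a2*, 52.5% for *Col3a1*, 58.0% for *Col5a1* and 49.6% for *Col5a2*.

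*Col6a1* to *Col6a2* stood at 1.95, 1.87 and 1.82 in WT libraries and 2.08, 1.68 and 1.86 in libraries labelled DKO, and *Col6a3* to *Col6a1* at 0.658, 0.651 and 0.613 against 0.528, 0.603 and 0.652. *Col8a1* to *Col8a2* ranged from 3.39 to 7.49 in WT libraries and from 6.36 to 8.31 in libraries labelled DKO. In DKO replicate 2 the ratio of *Col6a1* to *Col6a2* was the lowest of all and that of *Col8a1* to *Col8a2*, at 7.67, exceeded the WT libraries, as it did in DKO replicate 1. Both favored the chain of lower GC content (55.2% for *Col6a2* against 56.7% for *Col6a1*, and 46.8% for *Col8a1* against 59.1% for *Col8a2*). The ratio of *Col6a3* to *Col6a1* lay below the WT libraries there and so favored *Col6a1*, of higher GC content than *Col6a3* (54.5%). The part of base composition in these ratios was not tested. The groups overlapped for each of the 6 ratios. Exact permutation p-values lay between 0.2 and 0.9, and all were 0.9 after Benjamini-Hochberg adjustment over the 6 ratios.

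**Figure D3:**
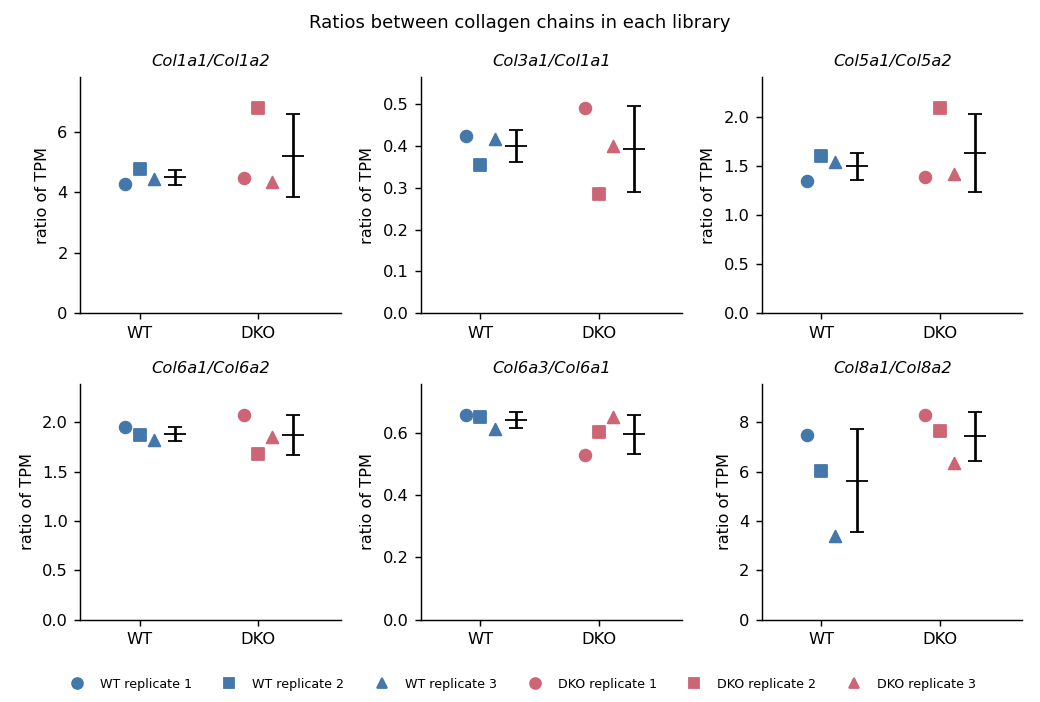
Ratio of the length-scaled levels (TPM) of pairs of collagen chains (y axis, starting at 0) in WT and DKO libraries (x axis), with 1 point per library and the mean with its SD (n = 3) as a bar beside the points. DKO replicate 2 is the highest for *Col1a1*/*Col1a2* at 6.78 and for *Col5a1*/*Col5a2* at 2.09, and the lowest for *Col3a1*/*Col1a1* at 0.286.

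Collagen coding sequences are repetitive in a way that bears on base composition, since each Gly-X-Y repeat opens with a glycine codon, which starts with GG. All 38 members had a coding transcript among the GENCODE transcripts of GRCm38. The longest uninterrupted run of codon triplets that open with a glycine codon had between 216 and 344 triplets in the 11 fibrillar chains. It had 37 to 87 triplets in beaded chains, 32 to 113 in FACIT chains, 40 to 56 in transmembrane chains and 23 to 75 in the others. *Col16a1* held 21 separate stretches of at least 5 triplets and *Col7a1* held 20, which reflects their interrupted helices, whereas fibrillar chains held 2 or 3. The median GC content of the coding sequence was 58.9% over the members. The first 10 triplets of the longest run are shown for the most abundant member of each group and for *Col1a2*, the partner of *Col1a1*, as spliced coding sequence with glycine codons in capitals. Each stretch of 90 bases crosses at least 1 exon boundary, so the GRCm38 coordinates include introns.
*Col1a1*, chr11:94939451-94939939, plus strand: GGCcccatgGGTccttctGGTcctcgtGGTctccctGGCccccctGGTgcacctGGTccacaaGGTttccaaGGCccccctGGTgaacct
*Col1a2*, chr6:4512406-4515516, plus strand: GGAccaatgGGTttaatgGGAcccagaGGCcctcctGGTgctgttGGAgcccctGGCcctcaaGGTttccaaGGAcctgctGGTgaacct
*Col6a1*, chr10:76719623-76720996, minus strand: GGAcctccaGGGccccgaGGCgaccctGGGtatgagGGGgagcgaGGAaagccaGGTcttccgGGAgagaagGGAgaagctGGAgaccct
*Col12a1*, chr9:79612423-79613769, minus strand: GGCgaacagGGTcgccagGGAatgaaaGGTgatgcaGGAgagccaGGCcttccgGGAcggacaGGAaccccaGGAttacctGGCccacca
*Col17a1*, chr19:47664415-47665875, minus strand: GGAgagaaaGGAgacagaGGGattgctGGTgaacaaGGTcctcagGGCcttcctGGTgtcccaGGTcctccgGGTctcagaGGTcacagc
*Col15a1*, chr4:47270324-47270947, plus strand: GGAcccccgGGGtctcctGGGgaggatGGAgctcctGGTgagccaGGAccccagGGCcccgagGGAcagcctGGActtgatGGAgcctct
Over these 90 bases GC content was 66.7% in *Col1a1* and 60.0% in *Col1a2*. The *Col1a1* stretch lies in exons 6 to 8 of its transcript, and the *Col1a2* stretch also in exons 6 to 8. Those of *Col6a1* and *Col15a1* lie in exons 8 to 9 and 13 to 14, and those of *Col12a1* and *Col17a1* in exons 56 to 58 and 23 to 25. Over the 34 tested members, the Spearman correlation between GC content and log2 fold change was -0.0139, given as a description over genes that share libraries.

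Some members lie side by side in the genome. *Col3a1* and *Col5a2* lie on chromosome 1 in opposite directions with 24614 bases and no other coding gene between them, and their log2 fold changes were 0.31 and 0.27. *Col6a2* and *Col6a1* follow each other on chromosome 10 at a distance of 85161 bases, with log2 fold changes of 0.46 and 0.45. *Col9a1* and *Col19a1* face each other on chromosome 1 at 9205 bases, and of these *Col9a1* had too few counts for a test. Exons of 10 members overlap those of another counted gene, 7 of them a gene on the opposite strand. Whether the counting used the strand is not given, so reads of the members *Col5a1*, *Col15a1*, *Col10a1*, *Col9a3*, *Col22a1*, *Col6a4* and *Col6a6* and of their antisense partners cannot be told apart.

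Genes that modify, process and bind collagen chains were read beside the chains. Of 21 enzymes and chaperones that hydroxylate, fold and export the chains, 19 had a log2 fold change above 0, with a median of 0.22, and 0 had an unadjusted p-value under 0.05 in edgeR. Of 15 genes of propeptide cleavage and cross-linking 12 were tested and 11 had a log2 fold change above 0, with a median of 0.40. At an unadjusted p-value under 0.05 in edgeR, 6 of these were higher and 1 was lower in skin labelled DKO, against 4.96% and 2.54% of all genes, and 0 passed after adjustment. DESeq2 gave only 4 genes of this list at that level, against 4.44% of the genes it tested, and 0 after adjustment. *Pcolce2*, an enhancer of propeptide cleavage, had normalized counts of 45.9, 57.7 and 38.5 in WT libraries and 96.0, 76.1 and 89.6 in libraries labelled DKO, with a log2 fold change of 0.88 and separate groups. *Adamts3*, a protease that removes the amino-terminal propeptide of procollagen, had 99.9, 121 and 105 against 42.1, 81.6 and 54.8, with a log2 fold change of -0.86 and separate groups in the opposite direction. By the quasi-likelihood test of edgeR with Benjamini-Hochberg adjustment, *Pcolce2* had an adjusted p = 0.342 and *Adamts3* an adjusted p = 0.412.

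Proteoglycans and other proteins on the fibril surface were divided, with 6 of 10 tested genes above 0 and a median log2 fold change of 0.11. *Tnxb*, whose product tenascin-X binds fibrils, had normalized counts of 3293, 4171 and 4544 in WT libraries and 7639, 6434 and 4426 in libraries labelled DKO, with a log2 fold change of 0.62. *Bgn*, a small proteoglycan, was higher in each library labelled DKO, with a log2 fold change of 0.23. Of 8 tested collagen receptors 5 were above 0, with a median of 0.22. *Mrc2*, which takes up collagen fragments, had a log2 fold change of 0.36, and the integrin gene *Itga1* had -0.27. *Plod1* and *P4ha3*, hydroxylases of lysine and proline, had the smallest p-values among the modifying enzymes, with log2 fold changes of 0.35 and 0.73 and overlapping groups.

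The members took 1.86%, 2.11% and 2.28% of the counts in WT libraries and 2.61%, 2.81% and 2.12% in libraries labelled DKO. The group means were 2.08% ± 0.210 and 2.51% ± 0.352 (SD, n = 3; exact permutation p = 0.2, two-sided). Exact Clopper-Pearson 95% intervals were, for example, 1.85% to 1.87% in WT replicate 1 and 2.80% to 2.82% in DKO replicate 2. They cover counting error only and do not describe the spread between mice. DKO replicates 1 and 2 exceeded every WT library and DKO replicate 3 did not. Among libraries that share a number in their titles, each DKO share exceeded each WT share. The margin was narrow for DKO replicate 3 at 2.12% against WT replicate 2 at 2.11%. The difference of 0.431 percentage points was 0.283 without DKO replicate 2 and 0.625 without DKO replicate 3. In a bulk sample, fewer or more cells of a type and less or more RNA per cell cannot be told apart.

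Markers of the cells that make or surround collagen were read in the same libraries. Of 18 fibroblast markers other than collagens, 16 had a log2 fold change above 0, with a median of 0.35, and 4 were higher and 0 lower at an unadjusted p-value under 0.05 in edgeR, against 4.96% and 2.54% of all genes. Their summed TPM was 1811, 1889 and 2368 in WT libraries and 3004, 2137 and 2141 in libraries labelled DKO, led by *Mfap4*, and no marker of the list was at 0 in every library. By p-value *Pdgfrb* and *Pi16* came first, at log2 fold changes of 0.38 and 0.75. The median log2 level of the collagen chains less that of the fibroblast markers was 0.06, 0.06 and -0.06 in WT libraries and -0.46, 0.04 and -0.03 in libraries labelled DKO. In DKO replicate 1 the fibroblast markers lay further above the WT mean than the collagen chains did, and the groups overlapped (exact permutation p = 0.5, two-sided).

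Skeletal muscle markers, which represent the thin muscle layer under the dermis, had a median log2 fold change of 0.99 over 35 tested genes, with 33 above 0. In each library labelled DKO, 27 of them exceeded every WT library, against 7.24% of all genes. At an unadjusted p-value under 0.05 in edgeR 26 were higher and 0 lower, against 4.96% and 2.54%, while 0 passed after adjustment in edgeR and 18 in DESeq2, against 1.07% there. Their summed TPM was 3364, 3057 and 3312 in WT libraries and 10715, 4897 and 5101 in libraries labelled DKO, led by *Acta1*. No marker was at 0 in every library, and *Myh7*, of slow fibers, had too few counts for a test. *Tnni2* and *Des* led the list by p-value, at log2 fold changes of 1.23 and 1.30. DKO replicate 1, in which the muscle markers were highest, held the highest normalized count of 14 tested members. Among these were *Col25a1*, *Col19a1* and *Col27a1*, but also *Col3a1* and *Col6a1*. *Col22a1*, which was not tested, was highest there as well. Relative to the WT mean, the median log2 level of muscle markers was 0.72 in DKO replicate 2 and 0.48 in DKO replicate 3. *Col25a1* and *Col19a1* were lower in DKO replicate 2 than in DKO replicate 3, and *Col27a1* and *Col22a1* were higher. The part of muscle or fibroblast content in the collagen values was not tested.

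**Figure D4:**
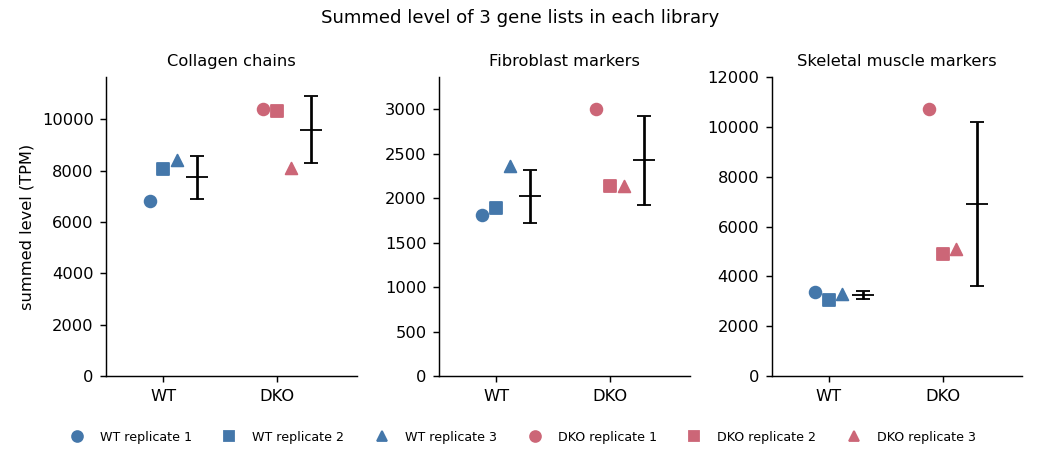
Summed length-scaled level in TPM (y axis, starting at 0) of the 38 collagen chains, of 18 fibroblast markers and of 36 skeletal muscle markers in WT and DKO libraries (x axis), with 1 point per library and the mean with its SD (n = 3) as a bar beside the points. Muscle markers reach 10715 TPM in DKO replicate 1 against 3057 to 3364 TPM in WT libraries, while the collagen chains range from 6802 to 10394 TPM with overlapping groups.

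Markers of several other cell types were given for the same libraries. At an adjusted p-value under 0.05 in DESeq2, 1 keratinocyte marker, 2 adipocyte markers and 1 smooth muscle and pericyte marker passed, against 1.07% of genes. On the other lists of this paragraph 0 passed. Keratinocyte markers, in which Cre is active, had a median log2 fold change of 0.14, with 11 of 14 above 0. Relative to the WT mean, their median log2 level was -0.27, 0.48 and 0.15 in DKO replicates 1 to 3 and between -0.03 and 0.02 in WT libraries. Their summed TPM was 11702 to 12296 in WT libraries and 14333 to 15702 in libraries labelled DKO. Groups did not overlap for 3 higher markers, against 7.24% of all genes, and for 1 lower marker, against 5.96%. Of these, *Krt1* and *Krt10* were higher, with log2 fold changes of 0.79 and 0.48. *Krt15*, named after its values were seen, had separate groups in the opposite direction and -0.60. Of 12 cartilage and bone markers only 5 had enough counts for a test, with a median of 0.01 and *Sp7* and *Alpl* at 0.60 and 0.39. The most abundant of them was *Sox9*, which hair follicles also express, and *Matn1* was at 0 in all libraries. Tendon markers had a median of -0.22, with 1 of 6 above 0, and *Kera* and *Thbs4* had -0.64 and 0.26. Endothelial markers had a median of 0.20 and 7 of 9 above 0, with *Pecam1* and *Cldn5* at 0.34 and 0.48. Adipocyte markers had a median of 0.16, with 8 of 11 above 0 and values from -0.74 to 1.42, where *Retn* and *Cfd* had 1.42 and 1.09. Relative to the WT mean, their median log2 level was 0.66, -0.05 and -0.25 in DKO replicates 1 to 3. It was -0.17, -0.10 and 0.34 in WT replicates 1 to 3, so only DKO replicate 1 exceeded every WT library. Dermal papilla markers had a median of 0.25, with 9 of 13 above 0 and values from -0.22 to 1.28, where *Alx4* and *Sox2* had 0.51 and 1.28. Smooth muscle and pericyte markers had a median of 0.12 and 7 of 9 above 0, with *Myh11* at 0.21. *Des*, which is also on the skeletal muscle list, had the highest value of these markers at 1.30 and their smallest p-value in edgeR. Immune markers had a median of 0.05 and 6 of 8 above 0, with *Csf1r* and *Cd3e* at 0.42 and -1.02.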

How the data were processed

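RNA-Seq was performed on total RNA of P4 back skin from 3 WT mice and 3 mice labelled DKO. Per the labels and the study's methods, the authors depleted rRNA, prepared NEBNext Ultra II libraries, trimmed paired-end reads (Trimmomatic 0.36), aligned them to GRCm38 (STAR 2.5.2b) and counted reads per gene with featureCounts of Subread 1.5.2. The deposited values are raw counts for 49315 genes. Strand setting and treatment of reads that map to several genes are not given in the sources used here. The 7 epidermis libraries hold only zeros in the files used here and were not analysed. Symbols were found for 48970 identifiers (99.3%) and sequences, exons and overlaps were taken from GENCODE M21 on GRCm38.

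Tests used edgeR 4.0.16 under R 4.3.3 (filterByExpr, TMM, quasi-likelihood F test, Benjamini-Hochberg adjustment over 20168 genes). Fold changes are DKO over WT, and standard errors are the fold change over the square root of F. DESeq2 1.42.0, other scalings and filters, a replicate block, 4 libraries that share a number in their titles and each library left out in turn were alternatives. Shares, ratios and the level relative to fibroblast markers, with 1 value per library, were compared by exact two-sided permutation in Python 3.11. The test was first run on simulated data. P-values rest on the spread between libraries, in which mouse and library preparation cannot be told apart. The members and lists were chosen with earlier results of these data known. Named members were those with an adjusted p-value under 0.05, the 6 most abundant, the most abundant and the smallest p-value of each group, up to 6 with the largest fold changes among those with separate groups, and the chains of the ratios. Of each related list the 2 genes with the smallest p-value were named. Other members are named for completeness.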

Additional observations from a re-analysis of the deposited data

How the results depend on the processing

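No collagen chain passed an adjusted p-value of 0.05 under any of the 15 alternatives, in edgeR or DESeq2, and the lowest adjusted p-value was 0.0824, for *Col27a1* with no filter. Of the 34 tested chains, 20 kept a fold change above 0 and 3 below 0 under every alternative, and 11 had either sign in at least 1 setting. The number of genes called was 14, against 154 with DESeq2, 22 with total counts, 210 with no filter, 35 with the replicate block, 9 in the 4 libraries that share the larger number and 23 with the GC adjustment, and it ranged from 2 to 36 with each library left out. Chains at an unadjusted p-value under 0.05 numbered 7 (7.5% of all genes tested). They numbered 11 with no filter (6.66%) and 3 in the 4 libraries (5.34%). With each library left out they ranged from 3 without DKO replicate 1 (7.39%) to 12 without DKO replicate 3 (9.33%). The share of all genes was lowest without WT replicate 1 (4.35%, 5 chains) and highest without DKO replicate 2 (12.4%, 7 chains). The cause of these shifts was not tested. Leaving out each library moved the log2 difference between groups over -0.0250 to 0.298 for *Col1a1*/*Col1a2*, -0.234 to 0.156 for *Col3a1*/*Col1a1*, -0.0878 to 0.21 for *Col5a1*/*Col5a2*, -0.0911 to 0.0636 for *Col6a1*/*Col6a2*, -0.182 to -0.0298 for *Col6a3*/*Col6a1* and 0.138 to 0.709 for *Col8a1*/*Col8a2*. Titles share a number between groups without saying what it marks. Deviations of libraries with the same number correlated between -0.01 and 0.22, not all over 0.1. Between libraries with different numbers the correlation lay between -0.14 and -0.10. Each library enters several of these correlations, so they are not independent and do not settle whether a replicate block is needed. The replicate block gave 10 chains at an unadjusted p-value under 0.05 in edgeR (8.95% of all genes) and a median log2 fold change of 0.18. The 1 WT and 1 DKO library with the smaller number had a median log2 ratio of 0.17 over the chains. In the 4 libraries with the larger number, log2 fold changes of single chains moved both ways. Those of *Col25a1*, *Col19a1*, *Col5a2* and *Col12a1* fell to 0.28, 0.64, 0.13 and 0.06. Those of *Col26a1* and *Col20a1* rose to 0.37 and 0.21, and that of *Col28a1* fell to -0.33. Depth limits *Col2a1*, *Col6a4*, *Col9a1* and *Col22a1*.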
